A study of Mus musculus with 46 samples.

Results

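Rab GTPases and sorting nexins, proteins of membrane traffic, are described here in wild-type (WT) mouse embryos and in embryos without Rbbp5, which is a common subunit of the H3K4 methyltransferase complexes. They were chosen by gene name alone, as every row of the expression table whose symbol was Rab followed by a number and at most 1 letter from a to d, or Vps or Snx followed by a number. The rule gave 63 of the 7182 genes used, 42 Rab genes and 21 Snx genes. No row matched the Vps pattern, so the Vps subunits of retromer, ESCRT and the tethering complexes are not analysed here. By their best known site of action the Rab genes were sorted into 10 of the endoplasmic reticulum and Golgi, 7 of the early endosome, 11 of recycling routes, 5 of late endosomes and lysosomes, 4 of exocytosis and 5 of the cilium and other roles, and the Snx genes into 10 with a BAR domain and 11 others.

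Rab proteins are small GTPases that mark the membranes of a compartment and, when bound to GTP, recruit the tethers, motors and sorting proteins that move cargo onward. Rab5 proteins mark early endosomes, Rab7 marks late endosomes, and Rab11 proteins (Rab11a, Rab11b and Rab25) mark recycling endosomes that return receptors and adhesion proteins to the cell surface. Sorting nexins bind endosomal phosphoinositides through a PX domain, and those that also carry a BAR domain bend the membrane into tubules that carry cargo away from degradation. In the early embryo such routes carry cell adhesion proteins, signalling receptors and polarity proteins.

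The knockout (KO) was made in zygotes, either by Cas9 mRNA with guide RNA in WT zygotes or by Cre mRNA in Rbbp5 flox/flox zygotes, and the sources used here do not tie either method to a library. Blastocysts developed in KSOM culture medium, and embryos for later stages were moved to pseudopregnant females after reaching 2 cells. RNA was measured by SMART-seq2. At embryonic day (E) 3.5 each library was 1 inner cell mass (ICM), freed of trophectoderm by immunosurgery (7 WT, 7 KO), and at E5.5 each was 1 hand-dissected epiblast (3 WT, 3 KO). E4.5 libraries were single cells, of epiblast (7 WT, 3 KO) and of primitive endoderm (1 WT, 2 KO). Rbbp5 is not analysed here, so its level gave no check of the genotype labels.

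The promoters of 5 genes are shown because the results below turn on their genes. Rab11a and Rab25 belong to the same recycling group and differed in opposite directions in the KO at E5.5. Snx5 and Snx6 encode interchangeable partners of the same tubule-forming coat and also differed in opposite directions there, and Rab17 had the largest decrease of any Rab or Snx gene in the KO ICM. Each sequence runs 5′ to 3′ along the transcribed strand from 250 bases before to 50 bases after a RefSeq start (GRCm38.p6), with every CG dinucleotide in capitals. All of them lie on the minus strand, Rab11a at chr9:64737707-64738006, Rab25 at chr3:88548230-88548529, Snx5 at chr2:144270523-144270822, Snx6 at chr12:54795613-54795912 and Rab17 at chr1:90967618-90967917.
Rab11a: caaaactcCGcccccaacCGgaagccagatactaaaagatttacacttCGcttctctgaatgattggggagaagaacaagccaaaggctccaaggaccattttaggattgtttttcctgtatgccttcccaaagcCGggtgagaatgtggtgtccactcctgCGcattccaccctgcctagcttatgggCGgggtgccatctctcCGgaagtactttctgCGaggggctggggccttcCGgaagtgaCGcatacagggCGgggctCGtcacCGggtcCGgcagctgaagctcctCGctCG
Rab25: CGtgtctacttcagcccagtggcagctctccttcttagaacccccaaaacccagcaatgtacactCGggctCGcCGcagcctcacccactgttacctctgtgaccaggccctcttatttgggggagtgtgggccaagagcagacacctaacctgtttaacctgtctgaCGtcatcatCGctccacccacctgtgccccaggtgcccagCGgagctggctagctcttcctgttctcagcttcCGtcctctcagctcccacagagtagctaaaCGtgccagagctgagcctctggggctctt
Snx5: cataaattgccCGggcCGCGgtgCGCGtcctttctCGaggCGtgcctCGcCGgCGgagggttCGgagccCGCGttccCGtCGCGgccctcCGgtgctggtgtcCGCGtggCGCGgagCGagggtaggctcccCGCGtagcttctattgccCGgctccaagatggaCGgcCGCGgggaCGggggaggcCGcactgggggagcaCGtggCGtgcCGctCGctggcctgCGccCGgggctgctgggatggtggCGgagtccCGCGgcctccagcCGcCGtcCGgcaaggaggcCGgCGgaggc
Snx6: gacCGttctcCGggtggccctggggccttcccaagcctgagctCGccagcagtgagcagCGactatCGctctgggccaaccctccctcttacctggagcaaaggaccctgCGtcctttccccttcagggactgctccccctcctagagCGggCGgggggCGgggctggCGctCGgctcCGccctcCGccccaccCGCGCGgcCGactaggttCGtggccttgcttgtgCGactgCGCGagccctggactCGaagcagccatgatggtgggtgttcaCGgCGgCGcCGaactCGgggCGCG
Rab17: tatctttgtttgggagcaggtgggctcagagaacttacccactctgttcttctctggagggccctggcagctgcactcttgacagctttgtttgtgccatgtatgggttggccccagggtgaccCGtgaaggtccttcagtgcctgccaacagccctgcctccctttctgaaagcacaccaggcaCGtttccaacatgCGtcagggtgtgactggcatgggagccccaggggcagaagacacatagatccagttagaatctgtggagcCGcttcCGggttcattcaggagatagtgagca

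The Rab11a window held 16 CG dinucleotides and the Rab25 window 9. The Snx5 window held 44 and the Snx6 window 29, so both partners of the coat have CG-rich starts. The Rab17 window held 5, and of the 63 promoters known for 51 of the Rab and Snx genes 4.76% had 5 or fewer, against 12.5% of the promoters of all genes used. The Rab17 and Snx5 windows lie wholly inside the annotated spans of their genes, downstream of the outermost 5′ end. Their CG counts therefore describe the start used and not that outermost end. The median promoter of the Rab and Snx genes held 23 CG dinucleotides, that of all genes used 20 and that of all protein-coding genes 13. The motif GGGCGG on either strand was present in 71.4% of the Rab and Snx promoters, 63.3% of those of all genes used and 46.2% of all protein-coding promoters. It was in the Rab11a and Snx6 windows and not in those of Rab25, Snx5 and Rab17. The motif CACGTG, the same on both strands, was in 14.3%, 10.3% and 7.84% of these sets, and of the windows shown only Snx5 held it. CACGTG and GGGCGG can share at most 1 base where they adjoin, and a match is only a match of letters.

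Values are FPKM, which are scaled by transcript length, so levels of different genes can be set side by side. KO ICM libraries held 3628 to 5136 genes at 1 FPKM or more (median 4522), and WT ICM libraries 5110 to 5718 (median 5374). Of the Rab and Snx genes 34 to 53 of the 63 were at that level in KO ICM and 49 to 57 in WT. KO ICM libraries 1, 4 and 6 had the fewest genes, and 37, 35 and 34 Rab and Snx genes at that level. The part of the number of detected genes in the ICM results was not tested apart from the fits given beside them. Of 14 listed epiblast genes 10 were in the table, and their summed level was 1539 to 1720 FPKM in WT E5.5 and 299 to 651 FPKM in KO E5.5 libraries. In these bulk samples fewer cells of a type and less RNA per cell cannot be told apart.

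In the WT ICM a few members of the trafficking machinery held most of the RNA. Rab11a was highest (387 ± 79.7 FPKM, SD, n = 7), followed by Snx3 (358 ± 66.4) and Snx2 (357 ± 133), whose order is within their spread. Snx5 (221 ± 46.5) and Rab1 (191 ± 25.7), the GTPase of transport from the endoplasmic reticulum to the Golgi, came next and differed by less than the SD of Snx5. The 5 highest genes made up 60.0% of the summed FPKM of all 63, while 7 genes had a mean below 1 FPKM. In WT E5.5 epiblast the order was Rab1 (178 ± 13.3 FPKM, SD, n = 3), Snx5 (139 ± 5.48), Rab7 (130 ± 14.4), Snx3 (126 ± 16.3) and Rab11a (105 ± 9.22). Snx5, Rab7 and Snx3 differed from each other by less than the SD of Snx3. There the 5 highest made up 44.2% of the sum, and 3 genes had a mean below 1 FPKM.

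In the KO ICM 14 of the 55 Rab and Snx genes that passed the filter on low values fell and none rose (limma on log2(FPKM + 1), adjusted p under 0.05), a share of 25.5%, where 24.9% of all genes tested fell and 28.3% were called in either direction. The share that fell is thus close to the background. The median log2 change was -0.64 for the Rab and Snx genes and -0.65 for all genes tested, and 46 of the 55 lay below 0. None of the 55 was called higher, against 3.44% of all genes. By family, 7 of 36 Rab genes and 7 of 19 Snx genes fell. By role, 4 of 10 genes of the endoplasmic reticulum and Golgi, 1 of 6 of the early endosome, 1 of 8 of recycling and 1 of 5 of late endosomes fell, and none of 3 of exocytosis or of 4 of the cilium and other roles was called. The 8 genes under the filter were Rab13, Rab15, Rab22a, Rab36, Rab3d, Rab8b, Snx22 and Snx7.

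**Figure D1:**
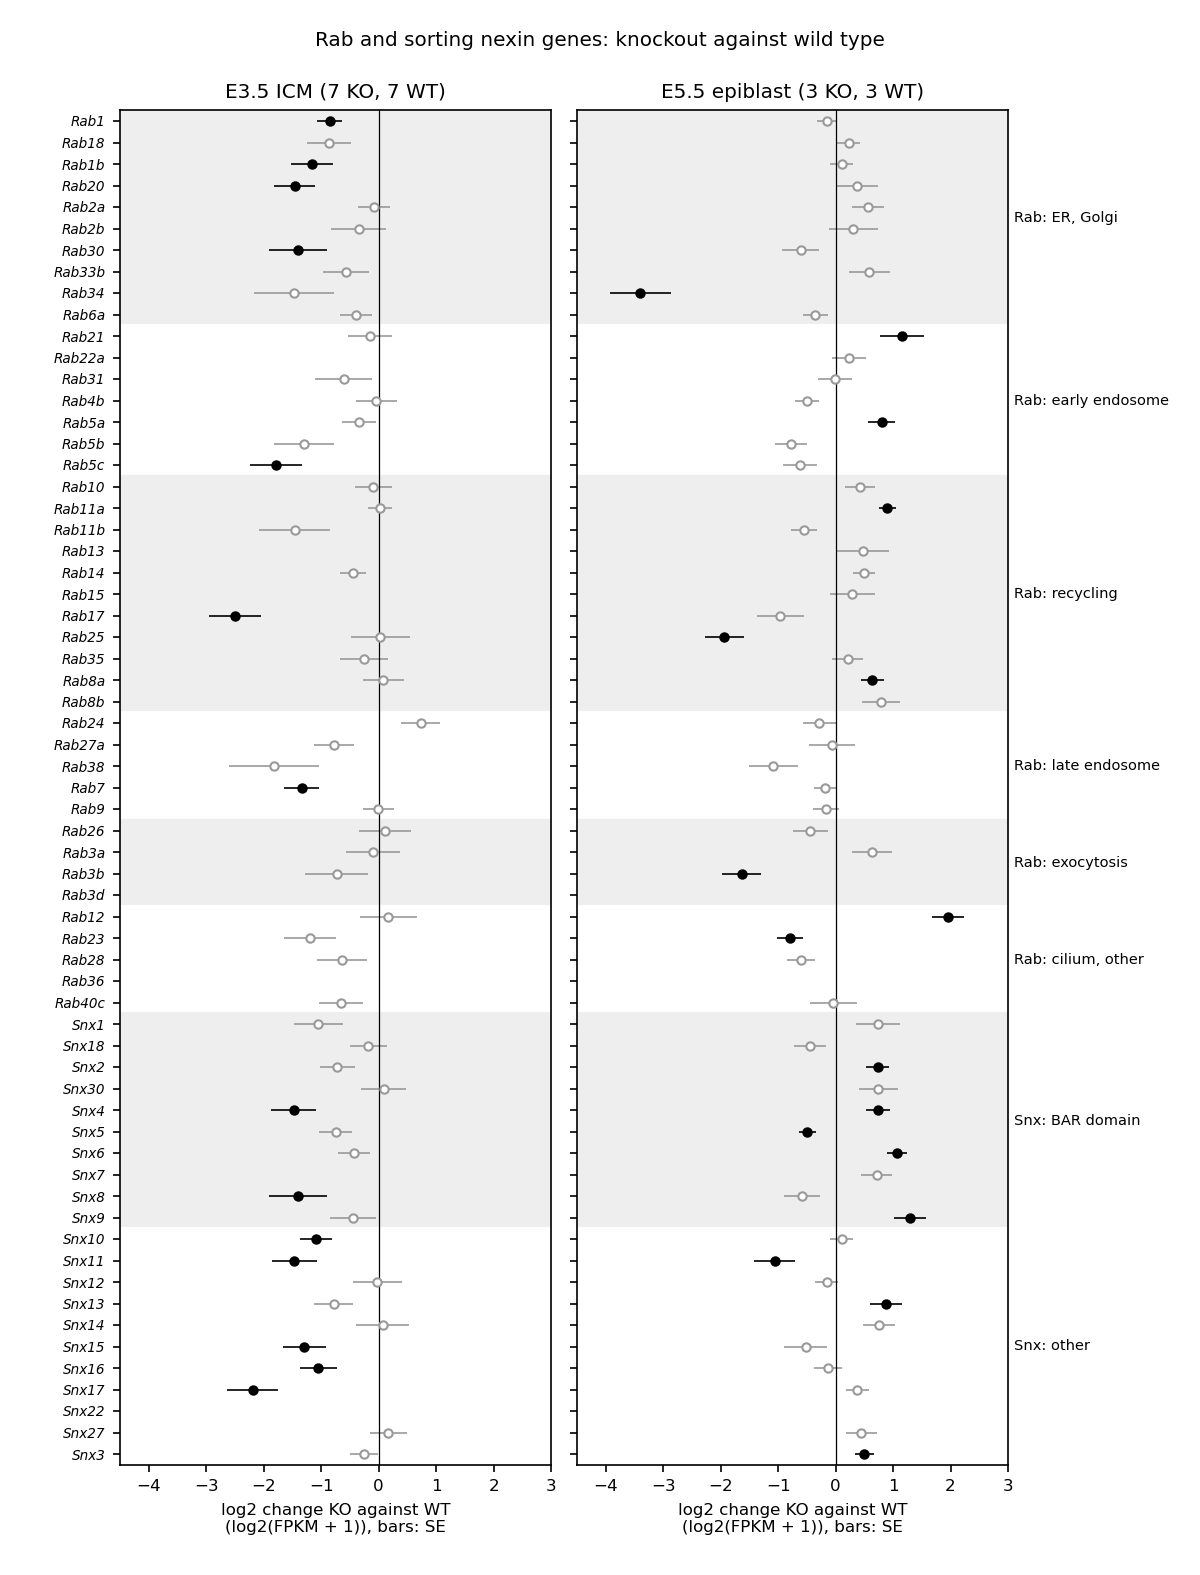
Log2 change of each Rab and Snx gene, KO against WT, on log2(FPKM + 1) with its standard error, in E3.5 ICM (left) and E5.5 epiblast (right), ordered by role. Filled points are genes under an adjusted p of 0.05 (14 in the ICM, all lower, and 17 at E5.5, 11 higher and 6 lower), open points are other genes tested, and a row without a point is a gene under the filter.

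Rab17 (chr1:90958133-90969673), a GTPase of recycling and transcytosis in epithelial cells, had the largest decrease. Its level was 2.23, 5.95 and 26.1 FPKM (lowest, median, highest) in the 7 WT ICMs and 0 to 1.64 FPKM in the 7 KO ICMs, in 3 of which it was listed at 0. The groups did not overlap. The log2 change was -2.50 ± 0.45 (SE, limma adjusted p = 0.00248), and -1.84 relative to the median of all genes. The highest WT value came from ICM 1, which also had the highest sum of the 12 measured trophectoderm markers, 1212 FPKM, where the other 6 WT ICMs had 91.6 to 430 FPKM and the KO ICMs 35.1 to 230 FPKM. Of 9 trophectoderm markers tested in the ICM 5 fell and none rose. Cdx2 was below 1 FPKM in every KO ICM but not in every WT ICM, while Gata2 was below 1 FPKM in every ICM of both groups. The part of trophectoderm cells in the Rab17 result was not tested.

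Snx17 (chr5:31193262-31198900), which returns integrins and lipoprotein receptors from endosomes to the surface, was at 1.69, 6.30 and 12.7 FPKM in WT ICMs and at 0 to 3.36 FPKM in KO ICMs, in 4 of which it was listed at 0. The groups overlapped only through KO ICM 5, the highest of the KO. Its log2 change was -2.19 ± 0.44 (SE, limma adjusted p = 0.00358). Snx4 (chr16:33251456-33299562), which recycles the transferrin receptor and acts in autophagy, was at 36.4, 48.8 and 63.3 FPKM in WT and at 2.56, 18.3 and 36.7 FPKM in KO, so that only the highest KO library reached the lowest WT library. The change was -1.48 ± 0.39 (limma adjusted p = 0.0124). Snx11 (chr11:96767546-96777712), a PX-only nexin, was at 1.10 to 6.66 FPKM in WT and 0 to 2.2 FPKM in KO, with a change of -1.47 ± 0.39 (limma adjusted p = 0.0121).

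Among the endosomal Rab genes Rab5c fell while its paralogs did not pass the test. Rab5c (chr11:100715003-100738215) was at 6.34, 9.20 and 16.6 FPKM in WT and 0, 3.15 and 5.59 FPKM in KO, without overlap, and changed by -1.78 ± 0.45 on the log2 scale (limma adjusted p = 0.0101). Rab5a changed by -0.34 ± 0.30 (limma adjusted p = 0.393) and Rab5b by -1.30 ± 0.52 (limma adjusted p = 0.0663), so the paralogs are not shown to differ from each other. Rab7 (chr6:87999106-88045270), the GTPase of late endosomes, had a narrow range in WT, 126, 141 and 153 FPKM, and a wide one in KO, 24.3, 54.8 and 121 FPKM. All KO values lay below all WT values, and the log2 change was -1.34 ± 0.31 (limma adjusted p = 0.00654). In KO ICMs 5 and 7 Rab7 stood at 114 and 121 FPKM, close to WT, while the other 5 KO ICMs were at 24.3 to 59.5 FPKM. Rab20 (chr8:11453390-11478640) acts in phagosome maturation and was counted above with the genes of the endoplasmic reticulum and Golgi. It was at 25.8 to 64.5 FPKM in WT and 4.96 to 26.5 FPKM in KO, a change of -1.46 ± 0.36 (limma adjusted p = 0.00926). It overlaps an annotated long noncoding RNA, and no source used here says whether counting used strand.

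**Figure D2:**
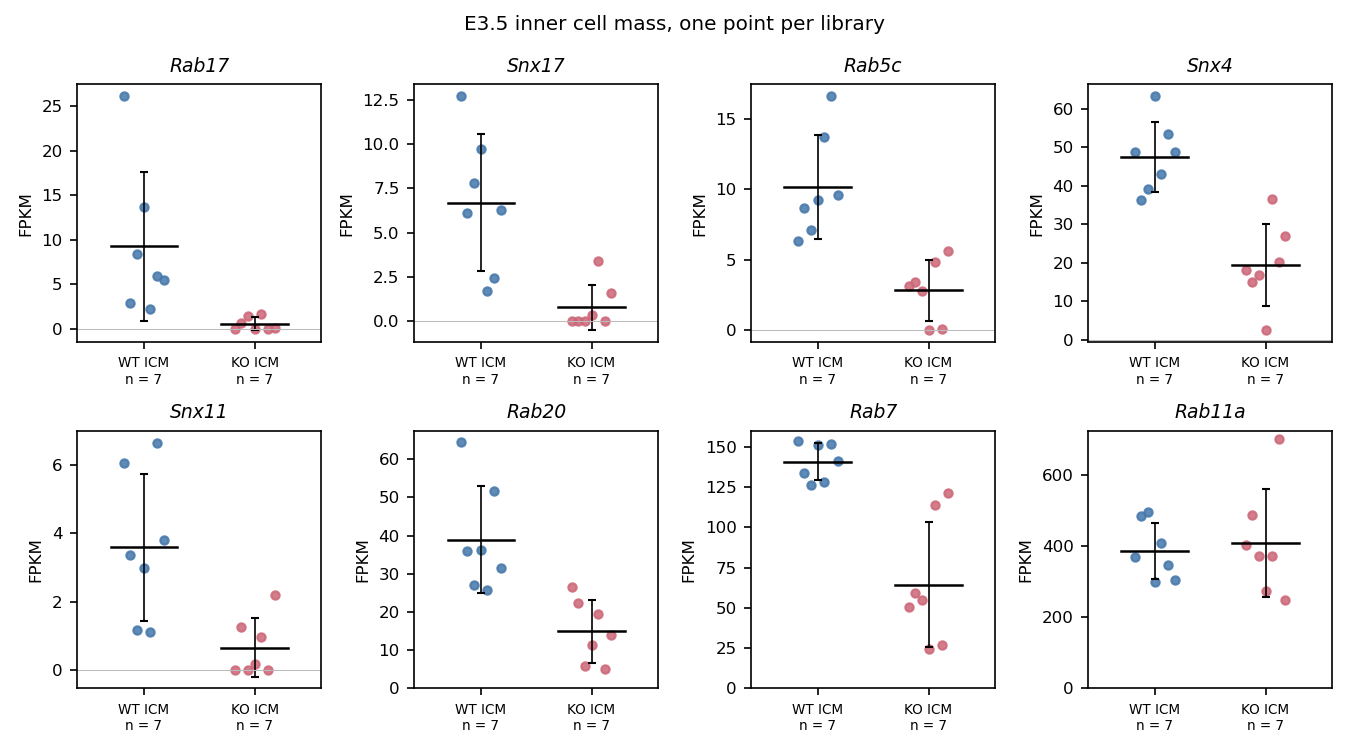
FPKM of 8 genes in each of 7 WT (blue) and 7 KO (red) ICM libraries, with the mean (line) and SD (bar) of each group. Rab17, Rab5c and Rab7 do not overlap between the groups, while Rab11a spans 300 to 495 FPKM in WT and 247 to 702 FPKM in KO.

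The recycling GTPase Rab11a stood at 300, 370 and 495 FPKM in WT ICMs and at 247, 373 and 702 FPKM in KO ICMs, a log2 change of 0.03 ± 0.21 (limma adjusted p = 0.929). Rab11b was at 31.0, 55.1 and 88.3 FPKM in WT and 0.435, 30.6 and 53.1 FPKM in KO, a change of -1.46 ± 0.62 that did not pass (limma adjusted p = 0.0813). The other genes that fell were Rab1, Rab1b and Rab30 of the secretory pathway and Snx8, Snx10, Snx15 and Snx16, with log2 changes from -1.40 (Rab30 and Snx8) to -0.85 (Rab1). Without overlap between the groups were 4 genes (Rab17, Rab5c, Rab7 and Snx10), where 4.61% of all genes did not overlap.

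Scaling set much of the ICM count. The median log2 change of all genes moved from -0.65 to 0.03 with quantile normalization and to -0.26 with median ratio scaling, and the median of the Rab and Snx genes to 0.01 and -0.22. With quantile normalization 4 Rab and Snx genes fell (Rab1, Rab17, Rab7 and Snx17) and Rab24, an autophagy-related GTPase, rose, where 6.45% of all genes fell and 6.56% rose. With median ratio scaling 5 fell (Rab17, Rab5c, Rab7, Snx11 and Snx17) and Rab24 rose, where 8.6% of all genes fell and 7.61% rose. Without KO ICMs 1, 4 and 6, a choice made after the data were seen, 5 of 56 fell (Rab17, Rab20, Rab7, Snx17 and Snx4), where 5.91% of all genes fell. With each library's count of detected genes added to the fit as a term, another later choice, limma called none, 4 Rab and Snx genes were under an unadjusted p of 0.05, and 0.0% of all genes were called. Rab17, Rab7 and Snx17 were lower in all of these fits, and each was called in every one except that with detected genes.

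In the KO E5.5 epiblast the Rab and Snx genes changed both ways: 11 of 60 rose (18.3%) and 6 fell, where 15.6% of all genes tested rose, 18.5% fell and 34.1% were called in either direction. The median log2 change was 0.16, against -0.07 for all genes. Of the Snx genes 6 of 20 rose and 2 fell, and of the Rab genes 5 of 40 rose and 4 fell. Among the 10 BAR-domain nexins 4 rose (Snx9, Snx6, Snx4 and Snx2) and Snx5 fell. The groups did not overlap for 24 of the 60 genes, where 49.2% of all genes did not overlap. The 3 genes under the filter were Rab36, Rab3d and Snx22.

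The KO E5.5 libraries also carried RNA of trophectoderm markers. In library order, the summed level of the 12 trophectoderm markers was 142, 101 and 150 FPKM in the WT libraries and 3603, 1968 and 2117 FPKM in the KO libraries. Of 11 markers tested 10 were higher. Cdx2, Gata3, Gata2, Elf5 and Tead4 were below 1 FPKM in every WT library, and no marker of the list was below 1 FPKM in all KO libraries. Of 9 epiblast genes tested 7 fell and 1 rose. Of 8 listed extraembryonic ectoderm markers 4 were in the table, of which Elf5 and Cdx2 are also trophectoderm markers here. Their sum was 7.47 to 8.79 FPKM in WT and 47.7 to 167 FPKM in KO libraries, with 2 of 3 tested higher. The part of cells of either tissue in each change of the Rab and Snx genes at E5.5 was not tested. A change within epiblast cells and a change of tissue cannot be told apart.

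Rab34 (chr11:78188427-78192193), a GTPase of the Golgi and of ciliogenesis, had the largest decrease. It was at 36.9, 28.0 and 29.4 FPKM in WT and 1.09, 0.678 and 7.07 FPKM in KO, well apart, with a log2 change of -3.40 ± 0.53 (SE, limma adjusted p = 0.00188). Rab25 (chr3:88542029-88548279), the Rab11 paralog of epithelial cells, was at 43.6, 27.3 and 26.8 FPKM in WT and 5.94, 5.19 and 13.5 FPKM in KO. All KO values lay below all WT values, and the change was -1.94 ± 0.34 (limma adjusted p = 0.00244). Rab3b, a GTPase of regulated exocytosis, was at 3.25, 3.56 and 2.62 FPKM in WT and 0.125, 0 and 1.10 FPKM in KO, a change of -1.63 ± 0.34 (limma adjusted p = 0.00522). In all of these genes KO library 3 was the highest KO value. It also had the highest summed level of the epiblast genes among KO libraries, 651 FPKM against 299 in library 1 and 387 in library 2. Between libraries 1 and 2 the order was opposite, with the higher epiblast sum and the lower value of each of these genes in library 2. A link between these values was not tested.

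The other decreases were smaller and less stable. Snx11 was at 15.8, 12.6 and 16.9 FPKM in WT and 5.83, 3.75 and 12.9 FPKM in KO, so the groups overlapped in KO library 3, and the change of -1.06 ± 0.36 was close to the threshold (limma adjusted p = 0.0468). Rab23, which restrains Hedgehog signalling, was at 15.8, 13.9 and 13.9 FPKM in WT and 7.48, 6.90 and 9.88 FPKM in KO, a change of -0.79 ± 0.23 (limma adjusted p = 0.0242). Both calls were lost without any 1 of the 3 WT libraries and without KO library 1 or 2. Over all alternatives the log2 change was -1.49 to -0.64 for Snx11 and -0.93 to -0.59 for Rab23.

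Rab12 (chr17:66494512-66519750), which directs recycling endosomes and the transferrin receptor towards degradation, had the largest increase. It was at 0.931, 2.05 and 1.51 FPKM in WT and 10.03, 8.28 and 7.28 FPKM in KO, and its log2 change was 1.95 ± 0.28 (SE, limma adjusted p = 0.000813). Snx9 (chr17:5841324-5931956), which works with dynamin in clathrin-mediated endocytosis, was at 1.17, 1.96 and 1.69 FPKM in WT and 6.78, 4.49 and 5.10 FPKM in KO, a change of 1.30 ± 0.28 (limma adjusted p = 0.00585). Neither gene overlapped between the groups. Rab21, which carries integrins through early endosomes, was at 0.551, 1.85 and 1.30 FPKM in WT and 3.95, 2.08 and 6.41 FPKM in KO. Its change of 1.16 ± 0.38 (limma adjusted p = 0.0372) was lost without any 1 WT library and without KO library 1 or 3. Snx13, an endosomal and lysosomal nexin, was at 1.74, 3.12 and 2.63 FPKM in WT and 6.52, 5.41 and 4.33 FPKM in KO, a change of 0.88 ± 0.28 (limma adjusted p = 0.0352), lost without any 1 WT library and without KO library 1 or 2. Rab5a, Rab8a, Snx2, Snx3 and Snx4 rose by 0.50 (Snx3) to 0.80 (Rab5a) on the log2 scale, and none of these 5 was called without WT library 1.

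**Figure D3:**
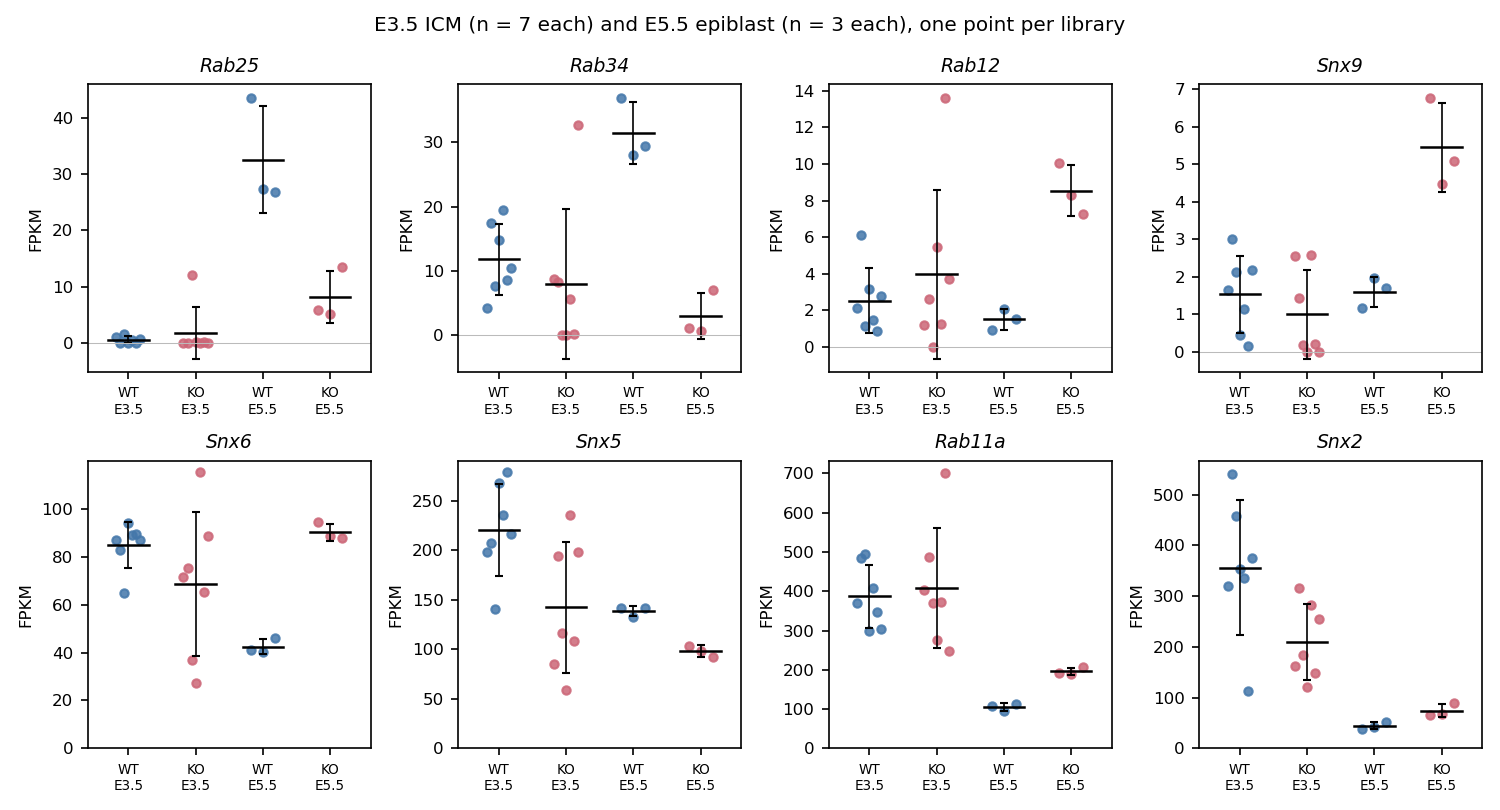
FPKM of 8 genes in WT (blue) and KO (red) libraries of the ICM (7 each) and the E5.5 epiblast (3 each), with mean (line) and SD (bar). At E5.5 Rab25, Rab34 and Snx5 are lower and Rab12, Snx9, Snx6, Rab11a and Snx2 higher in all 3 KO libraries than in all 3 WT libraries.

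Within paralog groups the balance of RNA was shifted in the KO E5.5 epiblast. Rab11a (chr9:64715300-64737756) was at 107, 95.0 and 113 FPKM in WT and 192, 189 and 207 FPKM in KO, a log2 change of 0.90 ± 0.15 (SE, limma adjusted p = 0.00187). Rab11b (chr17:33742484-33760486) was at 72.8, 64.3 and 61.4 FPKM in WT and 33.0, 55.4 and 49.3 FPKM in KO, a change of -0.55 ± 0.22 that did not pass (limma adjusted p = 0.0762). The sum of Rab11a, Rab11b and Rab25 was 187 to 223 FPKM in WT and 231 to 270 FPKM in KO. Of that sum Rab11a held 47.8%, 50.9% and 56.2% in WT and 83.1%, 75.8% and 76.7% in KO, while Rab25 held 13.3% to 19.5% in WT and 2.07% to 5.01% in KO. In the WT ICM Rab11a held 83.3% to 93.8% and Rab25 at most 0.305%. The Rab11a share of the KO E5.5 libraries thus lay above the WT E5.5 range and below the WT ICM range, a description without a test of values chosen after they were seen.

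Snx5 and Snx6 encode alternative partners of Snx1 and Snx2 in the coat that forms recycling tubules. Snx6 (chr12:54746339-54795749) was at 41.0, 40.3 and 46.0 FPKM in WT E5.5 and at 94.4, 88.8 and 87.7 FPKM in KO, a log2 change of 1.07 ± 0.17 (SE, limma adjusted p = 0.00113). Snx5 (chr2:144250123-144270902) was at 142, 132 and 142 FPKM in WT and at 104, 98.7 and 92.4 FPKM in KO, a change of -0.49 ± 0.15 (limma adjusted p = 0.0296), which was lost without any 1 WT library, without KO library 3 and with median ratio scaling. Neither gene overlapped between the groups. The ratio of Snx6 to Snx5 was 0.289, 0.305 and 0.324 in WT and 0.911, 0.900 and 0.950 in KO. In the ICM it was 0.321 to 0.461 in WT and 0.317 to 0.846 in KO, with KO ICM 1 highest. The ratio is a description and was not tested. Snx2 rose from 38.4, 42.2 and 51.9 FPKM to 65.6, 67.9 and 88.5 FPKM (limma adjusted p = 0.018), and Snx1 changed by 0.74 ± 0.38 without passing (limma adjusted p = 0.166).

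In the early endosomal Rab5 group 1 of the 3 genes passed the test, and no difference between them was tested. Rab5a was at 6.97, 8.86 and 6.54 FPKM in WT E5.5 and 12.9, 12.5 and 15.8 FPKM in KO, a log2 change of 0.80 ± 0.23 (limma adjusted p = 0.0241) that was lost without WT library 1 or 3 or KO library 3. Rab5b changed by -0.77 ± 0.28 (limma adjusted p = 0.0559) and Rab5c by -0.62 ± 0.29 (limma adjusted p = 0.121). Rab5a held 34.0% to 44.8% of the summed FPKM of the 3 genes in WT and 66.9% to 70.2% in KO, and the sum itself was 16.6 to 20.5 FPKM and 17.8 to 22.4 FPKM. Rab5a overlaps the coding gene Pp2d1 and Rab5b overlaps Pmel, so reads of these pairs may not be told apart. Rab7 was at 142, 115 and 134 FPKM in WT and 124, 88.3 and 133 FPKM in KO and overlapped (log2 change -0.19 ± 0.19, limma adjusted p = 0.466).

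**Figure D4:**
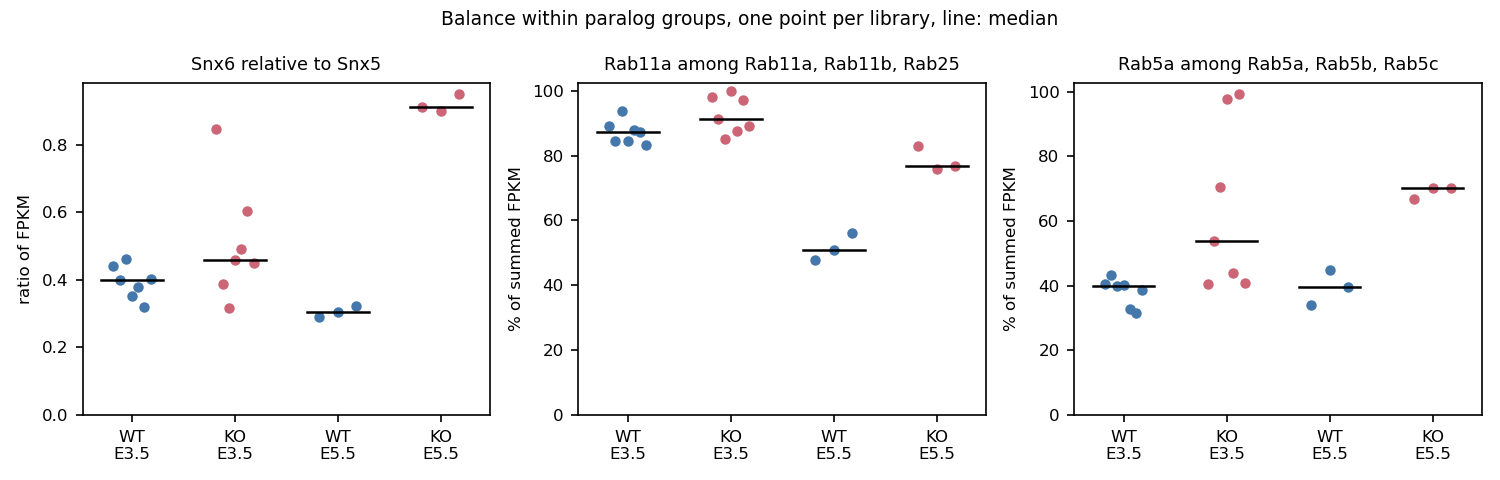
Ratio of Snx6 to Snx5 FPKM, Rab11a as a percent of Rab11a, Rab11b and Rab25, and Rab5a as a percent of Rab5a, Rab5b and Rab5c, in each library (blue WT, red KO, line: median). In all 3 panels the KO E5.5 libraries lie above all WT E5.5 libraries, at 0.900 to 0.950, 75.8% to 83.1% and 66.9% to 70.2%.

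Limits of the E5.5 calls are the 3 libraries a group and the choice of spread. When the ICM and E5.5 groups shared 1 estimate of the spread, 1 Rab or Snx gene remained called (Rab34, limma adjusted p = 0.0311), where 9.48% of all genes were called. Without each library in turn 7 to 19 were called, 7 without WT library 1, 8 without WT library 2 and 10 without WT library 3. Rab11a, Rab12, Rab25, Rab34, Rab3b, Snx6 and Snx9 were called whichever of the 6 libraries was left out.

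The KO effect was compared between stages by the interaction of genotype and stage, which asks whether it differed between E5.5 and E3.5. Of 59 genes tested 4 had a higher KO effect at E5.5 (6.78%) and none a lower one, where 10.6% of all genes were higher, 3.38% lower and 14.0% were called in either direction. All 4 were sorting nexins. Snx17 had the largest difference, 2.57 ± 0.72 on the log2 scale (SE, limma adjusted p = 0.0203). It fell in the KO ICM and at E5.5 stood at 41.9, 34.8 and 31.3 FPKM in WT and 40.1, 50.7 and 50.2 FPKM in KO. Snx4 differed by 2.22 ± 0.64 (limma adjusted p = 0.0236) and was called in opposite directions, lower in the KO ICM and higher in the KO E5.5 epiblast, where it stood at 29.2, 26.9 and 36.3 FPKM in WT and 61.4, 43.5 and 51.9 FPKM in KO. Its ICM call was lost with quantile normalization, with median ratio scaling and with detected genes as a term. Its E5.5 call was lost without WT library 1 or 2 or KO library 1, and with the 4 groups in 1 fit. Snx6 differed by 1.5 ± 0.45 (limma adjusted p = 0.0265) and Snx13 by 1.66 ± 0.53 (limma adjusted p = 0.0403).

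The median difference was 0.74 for the Rab and Snx genes and 0.56 for all genes, and relative to the latter the 4 nexins stood at 2.01 (Snx17), 1.66 (Snx4), 0.94 (Snx6) and 1.10 (Snx13). Quantile normalization moved the median of all genes to -0.07 and median ratio scaling to 0.16. With quantile normalization 4 genes were higher (Rab11a, Snx2, Snx4 and Snx6) and 2 lower (Rab24 and Rab25), where 6.88% of all genes were higher and 6.73% lower. Without WT E5.5 library 2 none of the 4 was called, without WT E5.5 library 1 or KO E5.5 library 1 or 3 Snx17 alone, without WT E5.5 library 3 Snx4 alone, and without KO E5.5 library 2 Snx17 and Snx4. Without KO ICM 5 there were 8. With each library's detected genes as a term none was called by limma and 12 were under an unadjusted p of 0.05, where 7.54% of all genes were called. Of the 14 genes called in the ICM and the 17 called at E5.5, which share no library, 2 were called in both (Snx4 and Snx11), 14.3% of the first list and 11.8% of the second, where 510 of all genes were called in both, 33.1% and 25.1% of the lists of all genes called.

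Between the WT ICM and the WT E5.5 epiblast 12 of 59 genes rose (20.3%) and 14 fell (23.7%), where 37.3% of all genes rose, 18.9% fell and 56.3% were called in either direction. This comparison shares its libraries with both KO comparisons, so its values are only set beside them. With quantile normalization 8 rose and 19 fell (all genes 27.5% and 24.9%), and with median ratio scaling 8 rose and 20 fell (27.0% and 24.1%), while the median of all genes moved from 0.43 to 0.09 and 0.10. The median of the Rab and Snx genes was -0.02. Of 10 BAR-domain nexins 5 fell (Snx1, Snx2, Snx4, Snx5 and Snx6) and Snx18 rose. Of the recycling Rab genes 4 of 10 rose and 3 fell.

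The largest increase was that of Rab25, from 0, 0.450 and 1.61 FPKM (lowest, median, highest) in 7 WT ICMs to 43.6, 27.3 and 26.8 FPKM at E5.5, without overlap and with a log2 change of 4.48 ± 0.37 (SE, limma adjusted p = 4.87e-07). Snx17 rose from 1.69 to 12.7 FPKM in the ICM to 31.3 to 41.9 FPKM at E5.5 (log2 change 2.45 ± 0.45, limma adjusted p = 0.000449). Rab13, a GTPase of tight junctions, rose from at most 1.63 FPKM to 4.11, 7.08 and 6.30 FPKM (2.12 ± 0.40, limma adjusted p = 0.000592). Snx11 rose by 1.95, Rab28 by 1.73 and Rab23 by 1.61 on the log2 scale. These 3 calls were lost with each library's detected genes as a term, where limma gave an adjusted p of 0.0741 for Snx11, 0.0505 for Rab28 and 0.0928 for Rab23. Rab28 and Rab23 act at the cilium.

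The largest decrease with stage was that of Snx2, from 112, 353 and 541 FPKM in WT ICMs to 38.4, 42.2 and 51.9 FPKM (log2 change -2.87 ± 0.36, limma adjusted p = 2.11e-05). The groups did not overlap, and WT ICM 6 was the lowest ICM. Rab20 fell from 25.8 to 64.5 FPKM to 4.64 to 9.01 FPKM (-2.28 ± 0.31, limma adjusted p = 3.34e-05), and Rab11a from 300 to 495 FPKM to 95.0 to 113 FPKM (-1.85 ± 0.19, limma adjusted p = 2.77e-06). Snx3, the cargo adaptor that retrieves the Wnt carrier Wntless, fell from 298 to 502 FPKM to 108 to 136 FPKM (-1.48 ± 0.17, limma adjusted p = 9.99e-06). Rab38, of lysosome-related organelles, fell by 1.78 on the log2 scale, a call lost without E5.5 library 2 and with the 4 groups in 1 fit, and the fall of Rab17 by 1.43 (limma adjusted p = 0.0391) was lost without WT ICM 3 or 4 or any 1 of the 3 E5.5 libraries. Rab5a fell by 0.64, a call lost without any 1 of several libraries of both stages, and Rab5c by 1.2, a call lost with the 4 groups in 1 fit and with detected genes as a term (limma adjusted p = 0.134). Rab5b changed by -0.22 ± 0.39 (limma adjusted p = 0.656), Rab7 by -0.11 ± 0.15 (limma adjusted p = 0.552) and Rab11b by 0.32 ± 0.26 (limma adjusted p = 0.309).

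Genes that regulate Rab proteins and that sort endosomal cargo were taken from lists chosen by role. Of 87 listed Rab regulators and effectors 50 were in the table. In the KO ICM 13 of 38 tested fell and none rose, among them Gdi2 (log2 change -0.94), which extracts Rab proteins from membranes, Rabggta (-1.31), a subunit of the prenyltransferase of Rab proteins, and Rab3il1 (-2.39), an exchange factor. At E5.5 8 of 43 rose and 2 fell in the KO, with Rabac1 (1.75), which receives prenylated Rab proteins, Rabggtb (0.75) and Chm (0.98), an escort of Rab proteins to the prenyltransferase, among those that rose. Mon1a, which with Ccz1 activates Rab7, fell by 1.65 in the KO ICM and rose by 1.51 at E5.5 on the log2 scale, a difference of 3.17 ± 0.85 (SE, limma adjusted p = 0.0159). Myo5a, a motor of recycling vesicles, fell by 1.31 at E5.5.

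Of 119 listed genes of endosomal sorting and fusion 49 were in the table. In the KO ICM 13 of 45 fell and 1 rose (Commd4, by 0.90). The largest decreases were those of the SNARE gene Vti1b (-2.85), of Ehd4 (-2.23), which acts in endocytic recycling, and of the syntaxin gene Stx7 (-2.12). At E5.5 14 of 49 rose and 5 fell in the KO. The largest increases were those of Commd3 (2.28), the clathrin light chain gene Cltb (1.70) and Ccdc93 (1.46), and the largest decreases those of the phosphatase gene Mtmr4 (-1.21), the syntaxin gene Stx6 (-1.05) and the sorting receptor gene Sort1 (-1.02). The shares that fell in the ICM, 34.2% and 28.9%, stand beside the 24.9% of all genes. Those that rose there, 0.0% and 2.22%, stand beside 3.44%. At E5.5 the shares that rose, 18.6% and 28.6%, stand beside the 15.6% of all genes. The shares that fell there, 4.65% and 10.2%, lay below the 18.5% of all genes. Both lists were counted in the main fits only, not under the other scalings.

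At E4.5 the libraries are single cells and the labels name no embryo of origin, so nothing was tested. A gene was taken as past 4-fold when the log2 ratio of the group means, each plus 1 FPKM, exceeded 2 in size and the higher mean was at least 20 FPKM. In the epiblast cells 2 of 63 Rab and Snx genes were past 4-fold higher in KO and none lower, where 3.12% of all genes were higher and 2.92% lower. Rab11a was at 46.3, 62.2 and 113 FPKM (lowest, median, highest) in 7 WT cells and at 230, 688 and 224 FPKM in 3 KO cells. It was the only one of the 63 genes without overlap in these cells, where 5.64% of all genes did not overlap, and its log2 ratio of means was 2.25. Rab40c was at 0 to 14.5 FPKM in WT cells and at 0, 33.5 and 68.8 FPKM in KO cells. Rab11b was at 42.1 to 125 FPKM in WT cells and at 89.3, 47.4 and 40.1 FPKM in KO cells, and Rab11a held 30.7% to 58.0% of the summed FPKM of Rab11a, Rab11b and Rab25 in WT cells and 71.6% to 93.5% in KO cells. The ratio of Snx6 to Snx5 overlapped, at 0.0943 to 0.457 in WT cells and 1.07, 0.266 and 0.0359 in KO cells. The trophectoderm markers summed to 62.9 to 283 FPKM in WT cells and 142 to 465 FPKM in KO cells.

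Other markers of endosomes overlapped between KO and WT epiblast cells. Rab7 was at 69.4 to 126 FPKM in WT cells and at 106, 112 and 122 FPKM in KO cells. Rab5c was at 21.0 to 45.4 FPKM in WT cells and at 35.7, 14.4 and 26.6 FPKM in KO cells, Rab5a at 0.0624 to 14.5 FPKM and 11.6, 21.9 and 17.1 FPKM, and Rab5b at 0.199 to 33.2 FPKM and 9.25, 21.0 and 0.233 FPKM. WT cells had 34 to 41 of the 63 genes at 1 FPKM or more and KO cells 28 to 33, so that many of these genes are seen in only some cells.

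In the primitive endoderm cells 12 genes were past 4-fold higher in KO and 3 lower, where 11.5% of all genes were higher and 8.15% lower, with 1 WT cell. Rab31 was at 0.165 FPKM in the WT cell and 63.4 and 91.5 FPKM in the KO cells, Rab17 at 0.109 and at 79.0 and 45.0 FPKM, Rab5b at 0.0458 and at 43.0 and 19.2 FPKM, and Rab40c was listed at 0 and was at 56.3 and 47.5 FPKM. Rab33b and Rab36 were high in 1 of the 2 KO cells only, at 60.7 and 53.7 FPKM. Snx8, Rab30 and Snx13 were at 49.7, 46.3 and 31.6 FPKM in the WT cell and at most 0.0791 FPKM in the KO cells. Rab7 was at 302 FPKM in the WT cell and 163 and 290 FPKM in the KO cells, Rab11a at 445 and at 663 and 405 FPKM, Rab11b at 99.2 and at 184 and 265 FPKM. Rab5a was listed at 0 in the WT cell and was at 0 and 27.4 FPKM in the KO cells, and Rab5c was at 0.0835 FPKM and listed at 0 in both KO cells. The primitive endoderm markers summed to 2823 FPKM in the WT cell and to 850 and 479 FPKM in the KO cells, and their part in these values was not tested.

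**Figure D5:**
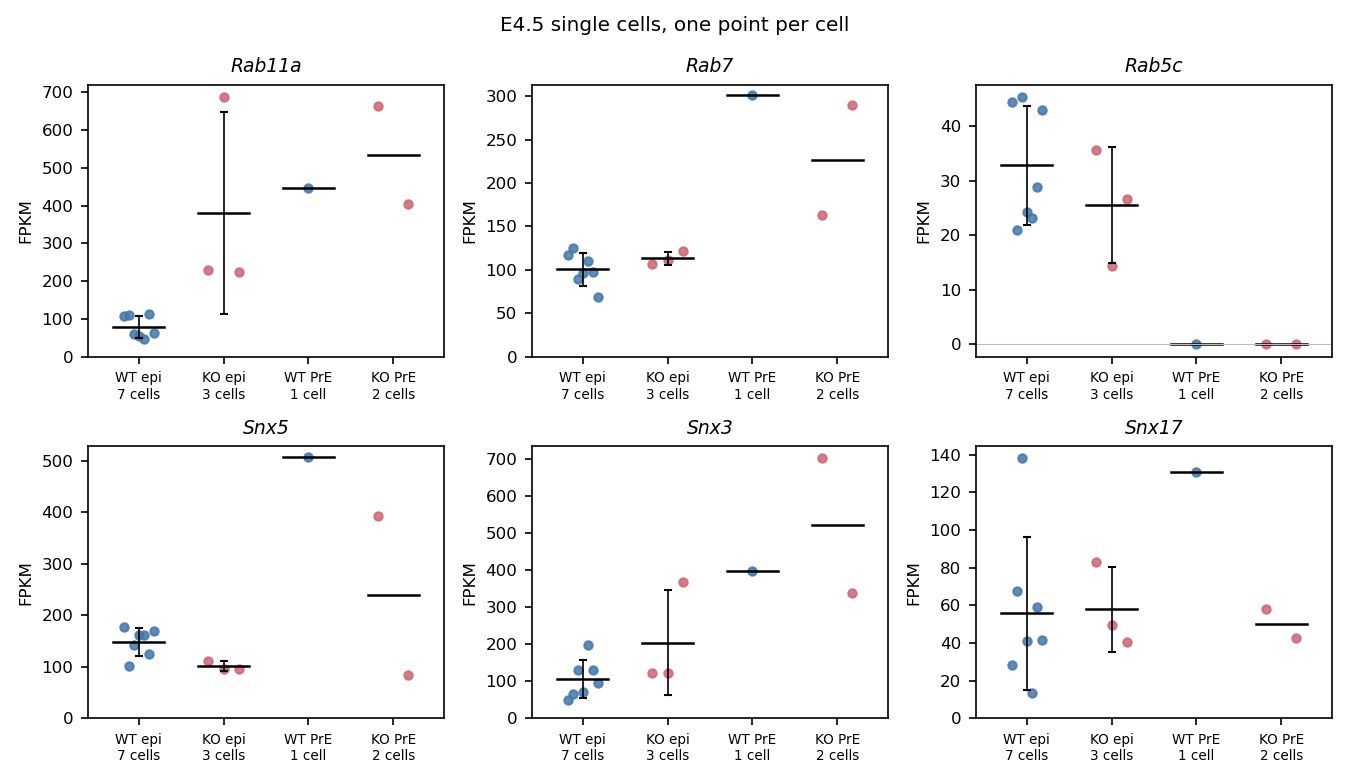
FPKM of 6 genes in single E4.5 epiblast (7 WT, 3 KO) and primitive endoderm (PrE; 1 WT, 2 KO) cells, with the mean (line) and, for 3 or more cells, the SD (bar). Rab11a lies at 224 to 688 FPKM in the KO epiblast cells, above all 7 WT epiblast cells, and the other 5 genes overlap between WT and KO epiblast cells.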

How the data were processed

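RNA was measured with SMART-seq2 and Tn5 library preparation, per the labels' protocols. The deposited table gives FPKM per gene and library as computed by the authors, and no source used here names the program that made it. The mm10 build and, among the tools, STAR 2.7.3 and Trim Galore 0.6.4 appear in the submitters' processing notes, with no role given. FPKM hold no read counts, so the depth is unknown and no counting interval is given. Of 7186 lines 4 were left out because 2 names stood more than once. Single-cell and embryo columns were not compared with each other.

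Embryo libraries were fitted on log2(FPKM + 1), which understates changes of low genes, using limma 3.58.1 (R 4.3.3) with a trended, robust variance prior. Genes whose mean over the libraries compared was under 1 FPKM were left out. P-values were adjusted by Benjamini-Hochberg over all genes tested, and 0.05 was the threshold. Each library is 1 embryo, and litters are not given, so p-values measure the spread between these samples. The code was tested on simulated data. A replicate block, other scalings, filters, pseudocounts, 1 fit of the 4 groups and leaving out each library were alternatives. Fits without KO ICMs 1, 4 and 6 or with detected genes as a covariate were chosen after seeing the data.

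Named genes were, in each comparison, all called genes where there were at most 12 and otherwise up to 6 in each direction by log2 change, in single cells at most 6 each way past 4-fold, and the Rab5, Rab7 and Rab11 paralogs everywhere. The genes and lists were chosen with earlier results of these data known. Genes of the regulator and sorting lists, Rab24 and the genes behind the other counts were named after their values were seen. Positions are from RefSeq (GRCm38) for 62 of 63 symbols, and promoters from RefSeq for 51. Of the 62 placed genes 25 overlap another annotated gene, 6 of them a coding gene (Rab2b, Rab5a, Rab5b, Rab6a, Snx12 and Snx22). Reads shared between close paralogs or pseudogenes may be split in ways the table does not show. Methylation, H3K4me3 and ATAC files were not analysed here.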

Additional observations from a re-analysis of the deposited data

Results flagged for a closer look

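In 53 groups of 7 libraries the highest or lowest value was compared with the spread of the rest, and 7 stood apart. The groups were the WT and KO ICMs for each named gene and, for Rab11a, also the WT E4.5 epiblast cells. The cutoff assumes normally distributed values, while many of these FPKM are listed at 0. A value above 0 with all others listed at 0 is always flagged, so the number that chance would flag is not known. Rab12 was at 13.63 FPKM in KO ICM 6, where the other KO ICMs were at 0 to 5.44 FPKM. Rab13 was at 1.697 FPKM in KO ICM 5 and listed at 0 in the others. Rab25 was at 12.12 FPKM in KO ICM 3, where the others were at 0 to 0.145 FPKM. Rab34 was at 32.74 FPKM in KO ICM 7, where the others were at 0 to 8.82 FPKM. Snx3 was at 661.9 FPKM in KO ICM 3 (others 188 to 370 FPKM) and at 502.3 FPKM in WT ICM 6 (others 298 to 359 FPKM). Snx6 was at 64.75 FPKM in WT ICM 3, below the 83.0 to 94.1 FPKM of the others.

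The KO effect differed between E5.5 and E3.5 by the interaction test for Snx17 (log2 difference 2.57), Snx4 (2.22), Snx13 (1.66) and Snx6 (1.5), all higher at E5.5.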

How the results depend on the processing

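For single named genes, 989 values under the alternatives kept their side of the threshold, 119 lost it, 13 passed it anew, and no called value changed sign. For the KO ICM, 14 genes became 5 with quantile normalization, 6 with median ratio scaling, 5 without KO ICMs 1, 4 and 6, and 0 with detected genes as a covariate. Leaving out each library gave 10 to 20. At E5.5, 17 became 1 when the 4 groups were in 1 fit, and 7 to 19 without each library in turn. For the difference of KO effects, 4 became 7 with a pseudocount of 5, 1 with median ratio scaling and 0 with the covariate, with 0 to 8 without each library. For E5.5 against E3.5 in WT, 26 became 16 when the 4 groups were in 1 fit and 17 with the covariate, with 18 to 26 without each library. In the E4.5 epiblast cells, 2 genes past 4-fold became 1 with a pseudocount of 5, 11 with no minimum level and 1 with a minimum of 50 FPKM, and 1 to 3 without each cell. In the primitive endoderm cells, 15 became 25 with no minimum and 6 with a minimum of 50 FPKM, and 14 to 18 without each KO cell. The cause of these changes was not tested.

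The labels state no pairing of the samples. Deviations of same-numbered libraries from their group means correlated at -0.133 to 0.155 in the ICM and -0.0224 to 0.118 at E5.5. Differently numbered libraries were not compared, so these values cannot show whether same-numbered libraries shared a litter or a batch. With the replicate block 16 genes were called between stages in WT, 8 each way, without Rab38, Rab5a and Rab5c among others, 14 in the KO ICM (11 shared with the fit without it), 15 in the KO epiblast, and 4 for the stage difference of the KO effect (3 shared). No paired analysis was possible for the E4.5 cells because their results come from no test.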
